A study of Mus musculus with 6 samples.

Results

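The genes described here encode proteins of the mitochondrial ribosome. Members were the rows of the deposited expression table whose gene identifier maps to a mouse symbol that starts with Mrpl or Mrps and a digit. Of the 8520 genes in the table, 53 met this rule. RefSeq lists 78 protein-coding mouse genes with such symbols, so 67.9% of them were measured. The samples were NK cells sorted from spleens of C57BL/6 mice aged 6 to 8 weeks (substrain C57BL/6Ncr in the protocol) that had received no treatment. Cells of the Ly49G+ group were CD3-, NK1.1+, Ly49G+ and Ly49C/I-, and cells of the Ly49I+ group were CD3-, NK1.1+, Ly49G- and Ly49C/I+. The gate of the Ly49I+ group used the antibody 5E6, which is listed as binding Ly49C and Ly49I, so its cells may carry either receptor. Each group had 3 libraries of stranded total RNA, from spleens of 20 mice per the protocol. The labels do not say whether each library came from mice of its own, so each p-value reflects variation among these 6 libraries alone, and that variation may be technical.

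Mitochondria translate a small set of membrane proteins of the respiratory chain on a ribosome of their own. Its RNAs are encoded in mitochondrial DNA, but every one of its proteins is encoded in the nucleus, made in the cytosol and imported. Some of these proteins have counterparts in the bacterial ribosome, and the others were added during the evolution of mitochondria. NK cells raise oxidative phosphorylation when they are activated, and the cells here were sorted without stimulation.

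The measured members were 38 of 51 large-subunit genes and 15 of 26 small-subunit genes. Among the large-subunit genes, 20 of 30 with a bacterial homologue and 18 of 21 specific to mitochondria were measured. In the small subunit, the counts were 9 of 16 and 6 of 10. Mrps18a and Mrps30 are counted in the large subunit, where their proteins sit despite their symbols. The 13 Mrpl genes not analysed here are Mrpl2, Mrpl11, Mrpl12, Mrpl14, Mrpl23, Mrpl27, Mrpl35, Mrpl36, Mrpl47, Mrpl52, Mrpl53, Mrpl54 and Mrpl55. The 12 Mrps genes not analysed here are Mrps6, Mrps10, Mrps11, Mrps12, Mrps17, Mrps18b, Mrps24, Mrps27, Mrps28, Mrps33, Mrps34 and Mrps36, the last of which encodes a component of the oxoglutarate dehydrogenase complex.

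Library totals solved from the deposited values were 33599679 to 37308068 reads for Ly49G+ and 34634383 to 40892154 reads for Ly49I+. Every gene of the table reached 10 CPM (reads of a gene scaled to the library's total) in at least 2 libraries. Genes are named called where the limma adjusted p was under 0.05. Over all genes, 1.82% were called higher and 1.77% lower in Ly49G+. Each of the 10 NK cell markers was measured, and their summed level was 12360 to 12970 CPM in Ly49G+ libraries and 12630 to 13450 CPM in Ly49I+ libraries, with 1 called higher and 1 lower in Ly49G+. The 10 measured of 12 monocyte and macrophage markers summed to 1278 to 1330 CPM in Ly49G+ libraries and 1964 to 2909 CPM in Ly49I+ libraries, and 9 of them were called lower in Ly49G+. The 6 measured of 10 T cell markers, which NK cells express in part, summed to 365.6 to 475.7 CPM in Ly49G+ libraries and 266.5 to 323.1 CPM in Ly49I+ libraries, and 5 were called higher in Ly49G+. The 7 measured of 10 proliferation genes summed to 701.4 to 787.5 CPM in Ly49G+ libraries and 498.0 to 579.6 CPM in Ly49I+ libraries, and 4 were called higher in Ly49G+. The monocyte and macrophage list, which includes Itgam, was not checked for expression in NK cells. Its sums are therefore not amounts of RNA from other cells. The part of other cells and of cycling cells in the differences below was not tested. In bulk RNA, fewer cells of a type and less RNA per cell cannot be told apart. None of the 6 B cell markers and none of the 6 erythroid markers was in the table.

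The mitochondrial ribosomal protein genes were expressed at low to moderate levels in both populations. A member had 253 to 2049 reads in a library, with a median of 705.5, and 45 of the 53 members reached 10 CPM in all 6 libraries. Per kb of transcript, the highest mean levels over the 6 libraries were 54.2 ± 4.0 CPM for Mrpl42, 51.5 ± 8.6 CPM for Mrps15, 42.4 ± 3.2 CPM for Mrps21, 35.4 ± 3.0 CPM for Mrpl30 and 32.1 ± 2.5 CPM for Mrpl33 (SD, n = 6). The order at the top differed by population: Mrps15 averaged 58.2 CPM per kb in Ly49G+ and 44.8 CPM per kb in Ly49I+, while Mrpl42 averaged 56.0 CPM per kb in Ly49G+ and 52.4 CPM per kb in Ly49I+. The lowest were 4.13 ± 0.52 CPM for Mrps35, 3.73 ± 0.57 CPM for Mrps16, 3.66 ± 0.19 CPM for Mrpl19, 3.28 ± 0.27 CPM for Mrpl48 and 2.47 ± 0.34 CPM for Mrps26 per kb (SD, n = 6). These levels depend on the length of the annotated transcript, and so does the place of Mrps15 above Mrpl42 in Ly49G+. Per kb of coding sequence, Mrps35 ranked 45, Mrps26 47, Mrpl19 37, Mrpl48 35 and Mrps16 33 of 53. Mrpl42, Mrps21 and Mrpl33 ranked 1, 2 and 3 on that scale, Mrps15 ranked 5 and Mrpl30 ranked 17. Of the reads of Mrpl33, Mrpl22 and Mrpl42 some may be shared with other loci, since 21.1%, 20.1% and 8.64% of their 100-base transcript windows also occur in another annotated transcript. No such window was found for 43 members.

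**Figure D1:**
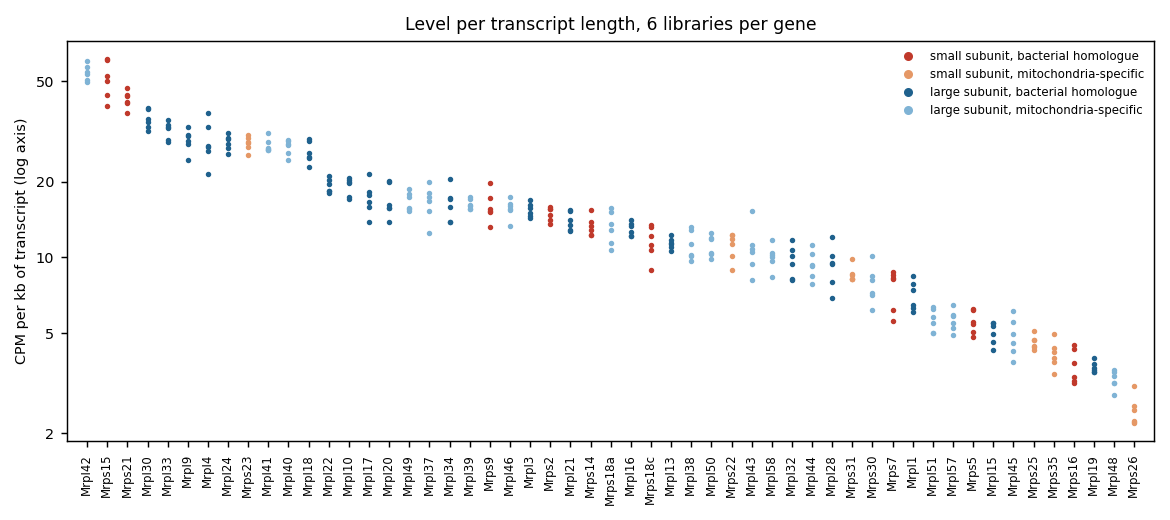
Level of each of the 53 members in CPM per kb of transcript on a log axis, ordered by mean; each point is 1 of the 6 libraries and the colour gives the subunit and whether the protein has a bacterial homologue. Genes of all 4 classes are spread along the range, and the mean levels at the ends are 54.2 for Mrpl42 and 2.47 for Mrps26.

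Between the populations, none of the 53 members passed an adjusted p of 0.05, in either direction. Over all genes 3.59% passed in the same fit (limma with an intensity trend, Benjamini-Hochberg adjustment over 8520 genes). At an unadjusted p under 0.05 limma gave 4 members, with Mrps15, Mrpl32 and Mrpl51 higher and Mrpl4 lower in Ly49G+, against 19.8% of all genes. The median log2 difference of the members, Ly49G+ minus Ly49I+, was 0.07, beside -0.02 over all genes, and 30 of the 53 were positive against 46.5% of all genes. The differences ran from -0.33 for Mrpl4 to 0.38 for Mrps15. All 53 of the 95% intervals lay inside a 2-fold change, and 46 lay inside a 1.5-fold change. The widest bounds were -0.67 for Mrpl43 and 0.70 for Mrps18c, so a difference of 2-fold or more in a measured member would lie outside its interval. The 3 libraries of one population stood entirely apart from those of the other for 10 members, 9 higher in Ly49G+ and 1 lower, against 12.5% and 13.4% of all genes. Mrps18c is among these 9, and with Mrps14 and Mrpl28 it is among the 30 positive members. These genes reached 10 CPM in at least 2 libraries only in Ly49G+, where they were higher.

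The labels give both groups replicate numbers 1 to 3. Same-numbered libraries deviated together, but not each most closely with its own number, so the pairing is only a hint. The fit was repeated with the replicate number as a block. That fit called Mrps15 and Mrpl32 higher and Mrpl4 lower in Ly49G+, 3 of 53 members. It called 11.7% of all genes, 5.69% higher and 5.96% lower.

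**Figure D2:**
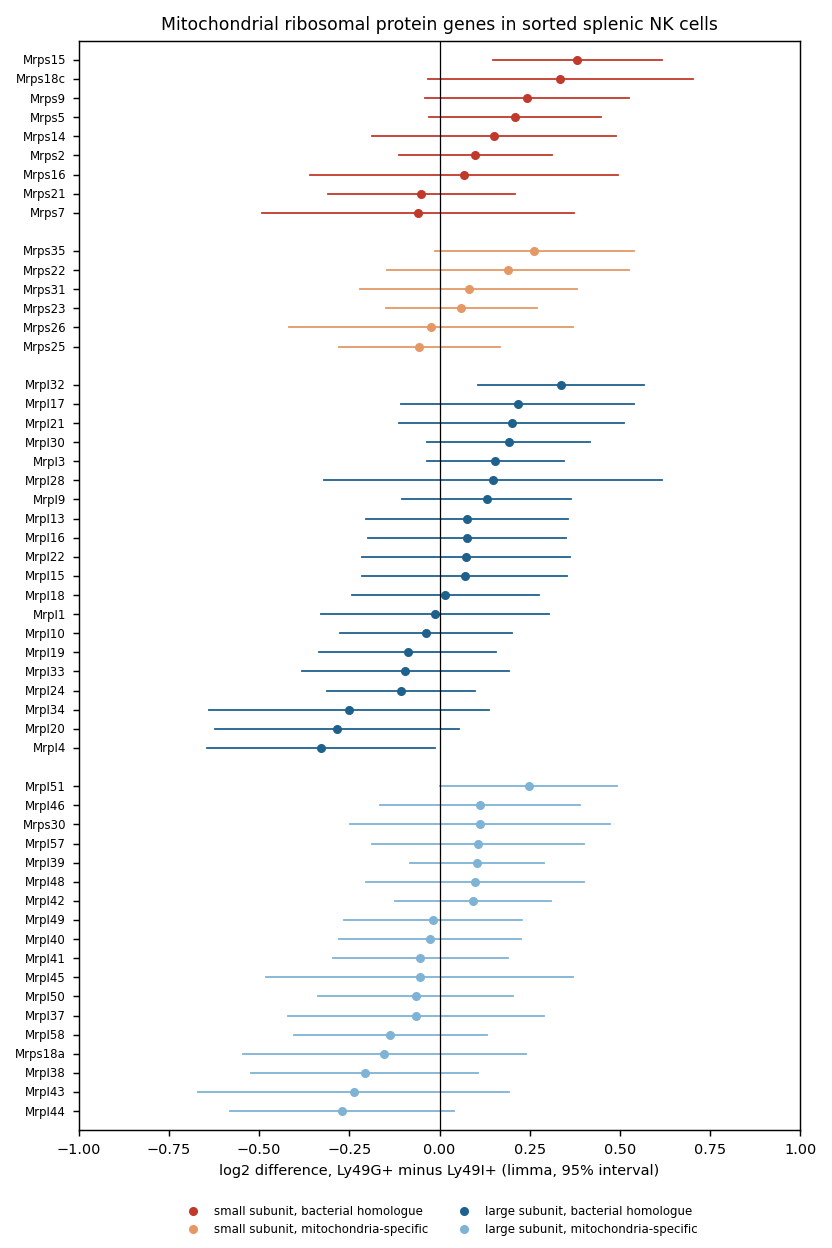
Log2 difference (Ly49G+ minus Ly49I+) of each of the 53 members with its 95% interval from limma, grouped by subunit and by bacterial homologue. The differences lie between -0.33 and 0.38, and every interval lies between -0.67 and 0.70.

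Among small-subunit genes with a bacterial homologue, Mrps15 had the largest difference of the 53 members. Its protein corresponds to bacterial S15, which binds the ribosomal RNA early in assembly of the small subunit. Mrps15 (GeneID 66407, chr4:126046928-126055536, GRCm38) had 57.4, 56.7 and 49.4 CPM in the Ly49G+ libraries, against 47.0, 41.4 and 37.5 CPM in the Ly49I+ libraries. All 3 Ly49G+ libraries were above all 3 Ly49I+ libraries, and replicate 3 was the lowest of each group. The log2 difference was 0.38 ± 0.11 (SE, 95% interval 0.15 to 0.62, limma adjusted p = 0.0815). With the replicate block the adjusted p was 0.011, with a correction for transcript GC content it was 0.0327 with a difference of 0.49, and without Ly49I+ replicate 1 it was 0.0235 with a difference of 0.47. Over 16 alternative settings the difference ranged over 0.30 to 0.49, the adjusted p over 0.00328 to 0.31, and 4 settings passed. Those settings also called more genes over the whole table than the 306 of the main fit. The counts were 993 with the block, 557 with the GC correction, 708 with both and 644 without Ly49I+ replicate 1.

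Mrps18c, one of a trio of paralogs related to bacterial S18, had 10.98, 10.82 and 9.97 CPM in Ly49G+ libraries and 7.31, 8.78 and 9.20 CPM in Ly49I+ libraries. The groups did not overlap. Its log2 difference was 0.34 ± 0.17 (SE, limma adjusted p = 0.289). It reached 10 CPM in 2 Ly49G+ libraries and 0 Ly49I+ libraries, so it entered the table through the group where it was higher, and its separation is given as a description. The same held, with overlapping groups, for Mrps14 and Mrpl28 (3 Ly49G+ libraries and 1 Ly49I+ library at 10 CPM) and for Mrpl34 (1 Ly49G+ library and 2 Ly49I+ libraries), 4 members in all. Mrps18a, the paralog placed in the large subunit, had 10.1, 13.9 and 9.44 CPM in Ly49G+ libraries, against 11.4, 12.01 and 13.3 CPM in Ly49I+ libraries. Those groups overlapped, with the highest and the lowest library both in Ly49G+, and the log2 difference was -0.15 ± 0.18 (SE, limma adjusted p = 0.649). Without 1 library it ran from -0.32 (without Ly49G+ replicate 2) to -0.04 (without Ly49G+ replicate 3), with -0.09 when either Ly49G+ replicate 1 or Ly49I+ replicate 3 was left out, and after GC correction it was -0.01.

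The remaining homologues of the small subunit differed by less. Mrps9, whose bacterial counterpart reaches the tRNA in the peptidyl site, had a log2 difference of 0.24, and Mrps5, related to bacterial S5, had 0.21. Both overlapped between groups and were higher in Ly49G+ in each of 3 same-numbered pairs. Mrps21 and Mrps7 had the only negative differences in this class, at -0.05 and -0.06. Of the 9 genes, 7 were positive, with a median of 0.15. The positive genes include Mrps18c and Mrps14, which entered the table through Ly49G+, where they were higher. The median is the value of Mrps14, so the count and the median are given as descriptions.

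Among small-subunit genes specific to mitochondria, Mrps35 had 20.7, 17.6 and 18.1 CPM in Ly49G+ libraries and 15.9, 14.3 and 16.6 CPM in Ly49I+ libraries. All 3 Ly49G+ libraries were higher, and the log2 difference was 0.26 ± 0.12 (SE, limma adjusted p = 0.269). The other 5 genes of this class, Mrps22, Mrps23, Mrps25, Mrps26 and Mrps31, overlapped between groups. The median of the 6 was 0.07.

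Among large-subunit genes with a bacterial homologue, Mrpl32 and Mrpl4 lay at opposite ends. Mrpl32 encodes a protein whose maturation needs the m-AAA protease of the inner membrane. Mrpl32 (GeneID 75398, chr13:14610301-14613037, GRCm38) had 32.2, 35.3 and 30.5 CPM in Ly49G+ libraries, against 28.3, 24.6 and 24.8 CPM in Ly49I+ libraries. The groups did not overlap. The log2 difference was 0.34 ± 0.10 (SE, limma adjusted p = 0.108). The adjusted p was 0.0496 with the replicate block and 0.124 after GC correction, where the difference was 0.24. Over the 16 settings it ran from 0.0496 to 0.38, and the block was the only one that passed.

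Mrpl4 encodes the counterpart of bacterial L4, which lines the exit tunnel of the nascent peptide. Mrpl4 (GeneID 66163, chr9:21001252-21008839, GRCm38) had 27.7, 35.4 and 35.8 CPM in Ly49G+ libraries, against 34.1, 42.4 and 48.1 CPM in Ly49I+ libraries. Replicate 1 was the lowest of each group, so the groups overlapped, while Ly49G+ was lower in each of 3 same-numbered pairs. The log2 difference was -0.33 ± 0.14 (SE, 95% interval -0.65 to -0.01, limma adjusted p = 0.239). The adjusted p was 0.0325 with the replicate block. Over the 16 settings it ran from 0.0325 to 0.56, and only the block passed. After GC correction the difference was -0.12 (adjusted p = 0.56), and it was -0.21 without Ly49G+ replicate 1 and -0.22 without Ly49I+ replicate 3.

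Mrpl20, the counterpart of a bacterial assembly protein of the large subunit, had 10.5, 12.3 and 12.01 CPM in Ly49G+ libraries, against 12.01, 15.2 and 15.4 CPM in Ly49I+ libraries. The groups overlapped and its log2 difference was -0.28 ± 0.15 (SE, limma adjusted p = 0.319). Mrpl34, related to bacterial L34, had 8.36, 10.5 and 8.36 CPM in Ly49G+ libraries, against 12.4, 9.61 and 10.4 CPM in Ly49I+ libraries. The groups overlapped through Ly49G+ replicate 2, and the difference was -0.25 ± 0.18 (SE, limma adjusted p = 0.433). It was -0.07 after GC correction and -0.15 without Ly49I+ replicate 1. Mrpl30, Mrpl21 and Mrpl3 were higher in every Ly49G+ library than in any Ly49I+ library, with log2 differences of 0.19, 0.20 and 0.15. None of them passed the test. The 20 genes of this class had a median of 0.07, with 12 positive. Mrpl28 is among the 12 and Mrpl34 among the rest, and both entered the table through the group where they were higher.

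Among large-subunit genes specific to mitochondria, Mrpl51 had 21.5, 21.8 and 19.8 CPM in Ly49G+ libraries, against 17.2, 17.2 and 18.8 CPM in Ly49I+ libraries. The groups did not overlap and the log2 difference was 0.25 ± 0.11 (SE, limma adjusted p = 0.25). Mrpl44, a protein with a fold related to ribonuclease III, had 11.2, 11.99 and 13.16 CPM in Ly49G+ libraries, against 13.22, 14.7 and 15.9 CPM in Ly49I+ libraries. It was the only member for which all 3 Ly49G+ libraries were below all 3 Ly49I+ libraries, although the nearest libraries almost touched. Its log2 difference was -0.27 ± 0.14 (SE, limma adjusted p = 0.305). Mrpl43 had 11.3, 15.6 and 14.7 CPM in Ly49G+ libraries, against 13.2, 15.1 and 21.4 CPM in Ly49I+ libraries. One high library, Ly49I+ replicate 3, stood above the others, and the difference was -0.24 ± 0.19 (SE, limma adjusted p = 0.506). It was -0.04 without that library, -0.10 without Ly49G+ replicate 1 and -0.39 without Ly49I+ replicate 1. Mrps30, the second member of the large subunit with a small-subunit symbol, had 20.5, 27.9 and 33.5 CPM in Ly49G+ libraries, against 26.9, 23.5 and 23.9 CPM in Ly49I+ libraries. The Ly49G+ libraries enclosed all 3 Ly49I+ libraries, the difference was 0.11 ± 0.16 (SE, limma adjusted p = 0.727), and after GC correction it was 0.04. Leaving out Ly49G+ replicate 3 turned it to -0.05, leaving out Ly49G+ replicate 1 gave 0.31, and leaving out Ly49I+ replicate 1 gave 0.17. The 18 genes of this class had a median of -0.04, with 7 positive.

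**Figure D3:**
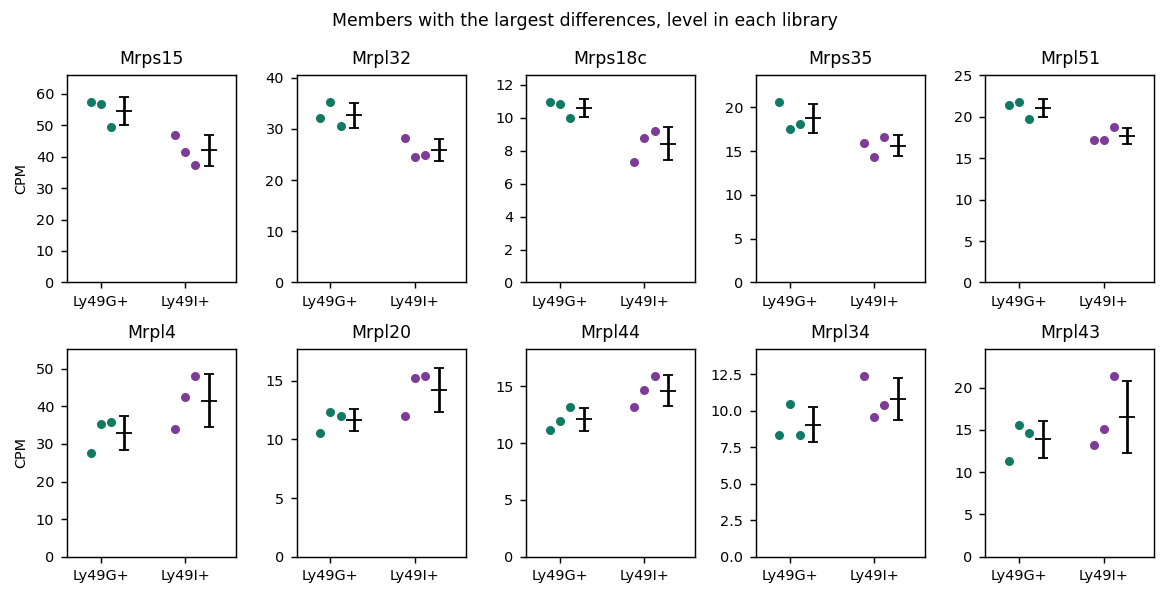
CPM in each library for the 5 members with the largest positive (top) and the 5 with the largest negative log2 difference (bottom); points are replicates 1 to 3 from left to right within each group, Ly49G+ before Ly49I+, and the bars give the mean and SD. The genes were picked for their large differences in these same libraries, so separation here is a description. The groups did not overlap for the top 5 and, of the bottom 5, for Mrpl44 alone. Over all genes 12.5% stood apart as higher in Ly49G+ and 13.4% as lower. Mrps18c entered the table through Ly49G+, where it was higher.

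Replicates of a group differed by amounts close to the median of all genes, and by less than genes of like level. The SD within groups on the log2 scale, pooled over both groups, had a median of 0.131 over the members, beside 0.125 over all genes and 0.149 over the 4145 genes in the members' range of levels. It was smallest for Mrpl39 (0.040), Mrpl3 (0.046), Mrpl21 (0.061) and Mrpl19 (0.062). It was largest for Mrpl43 (0.307), Mrps7 (0.306), Mrpl28 (0.299) and Mrpl45 (0.274). Mrpl45 is related to Mba1, a yeast protein that binds the ribosome at the inner membrane, and Mrps7 to S7 of the bacterial small subunit. When all genes were put into 20 bins by level, 34 of the 53 members had an SD below the median of their bin. The median percentile of the members within their bins was 33.1. The members did not all vary in the same libraries: 14 had their lowest value in Ly49G+ replicate 1 and 14 in Ly49I+ replicate 1, while 15 had their highest in Ly49G+ replicate 2 and 15 in Ly49I+ replicate 3.

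Summed over the 53 measured members, the level was 1134, 1211 and 1172 CPM in Ly49G+ libraries, against 1099, 1121 and 1185 CPM in Ly49I+ libraries. The groups overlapped, and the members held 0.110% to 0.121% of a library. The large-subunit genes summed to 807, 876 and 854 CPM in Ly49G+ libraries and 803, 833 and 879.5 CPM in Ly49I+ libraries, again with overlap. The small-subunit genes summed to 327, 335 and 318 CPM in Ly49G+ libraries and 296, 288 and 306 CPM in Ly49I+ libraries, with no overlap. Their means were 326.8 ± 8.46 CPM in Ly49G+ and 296.5 ± 9.20 CPM in Ly49I+ (SD, n = 3 each). Mrps15 alone held 12.2% to 17.5% of this sum. Without it the sums were 270.0, 278.2 and 268.7 CPM in Ly49G+ libraries and 249.3, 246.1 and 268.4 CPM in Ly49I+ libraries, and the nearest libraries almost met. The sum also holds Mrps18c and Mrps14, which reached 10 CPM in at least 2 libraries only in Ly49G+, where they were higher. Mrps18c had 9.97 CPM in Ly49G+ replicate 3 and 9.20 CPM in Ly49I+ replicate 3, the nearest libraries. With Mrps18c left out as well as Mrps15, the sums of these libraries overlapped. The ratio of the large-subunit to the small-subunit sum was 2.59 ± 0.112 in Ly49G+ and 2.83 ± 0.102 in Ly49I+, and without Mrps15 it was 3.11 ± 0.101 in Ly49G+ and 3.29 ± 0.0831 in Ly49I+ (SD, n = 3 each). The median log2 difference was 0.00 over the 38 large-subunit genes and 0.10 over the 15 small-subunit genes, 11 of which were positive. Mrps18c and Mrps14 are among these positive genes, and they remain in the small-subunit sums of both ratios. The difference between the subunits was not tested.

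**Figure D4:**
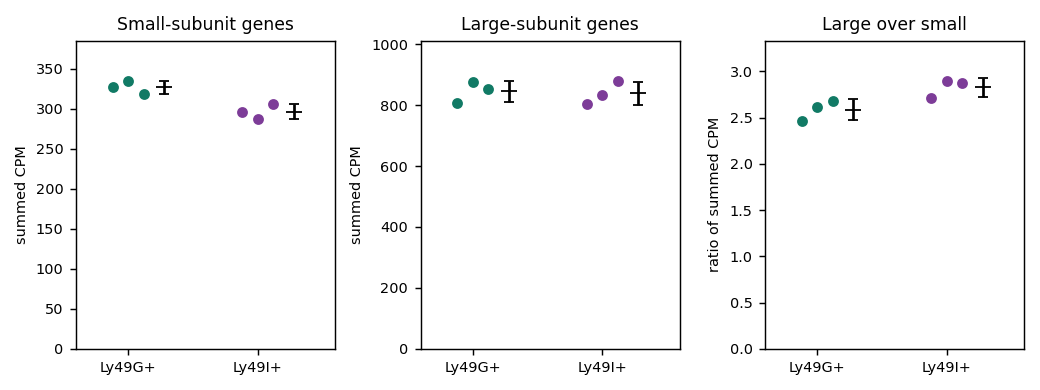
Summed CPM of the 15 small-subunit genes, of the 38 large-subunit genes, and the ratio of both sums, in each library; points are replicates 1 to 3 from left to right within each group, Ly49G+ before Ly49I+, and bars give the mean and SD. The small-subunit sums do not overlap between groups (326.8 and 296.5 CPM on average), and the large-subunit sums do. The small-subunit sum includes Mrps18c and Mrps14, which entered the table through Ly49G+, where they were higher.

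The differences followed the GC content of the transcripts, as they did over the whole table. Across the 53 members Pearson's r between log2 difference and GC percent was -0.44 (Spearman's rho -0.377). Across 8235 genes with a known GC content it was -0.316 (rho -0.523). Genes are not independent replicates and share the 6 libraries, so these are descriptions. Libraries also deviated from their own group mean with GC content, some as strongly as the groups differed. Over the 8235 genes r was -0.18, -0.25 and 0.42 in Ly49G+ replicates 1 to 3, and -0.65, -0.07 and 0.63 in Ly49I+. Over the members it was -0.33, 0.19 and 0.26 in Ly49G+, and -0.46, 0.13 and 0.38 in Ly49I+. Whether the relation belongs to the populations or to single libraries was not tested. Of the 26 members below the median GC of 49.7%, 18 were positive with a median of 0.10, and of the 27 at or above it 12 were positive with a median of -0.04. Mrpl32 had a GC content of 42.2% and Mrpl4 had 60.1%. Mrps15, at 54.0%, stood away from this relation. After a correction for GC content, added after seeing the data, r over the members was 0.03. Mrps15 was then the only member called, at 0.49 and higher in Ly49G+, where 6.76% of the 8235 genes tested were called, 3.97% higher and 2.79% lower. With the replicate block added it was again the only member called, against 8.6% of genes, 5.11% higher and 3.49% lower.

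**Figure D5:**
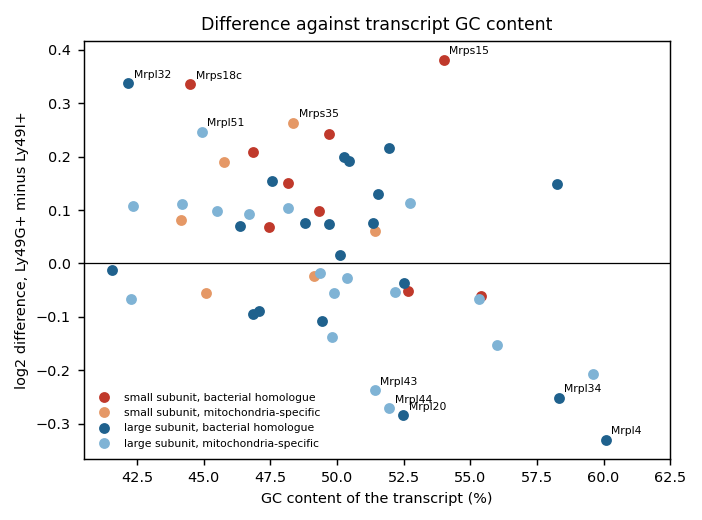
Log2 difference (Ly49G+ minus Ly49I+) of the 53 members against the GC percent of the transcript, coloured by class, with the members of the largest differences named. Differences fall as GC content rises (r = -0.44), and Mrps15 lies above the others of similar GC content.

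Mitochondrial ribosomal proteins with other names were encoded by 5 further measured genes, and none of them passed the test, against 3.59% of all genes. Chchd1, a small-subunit protein, had 13.0, 13.3 and 11.2 CPM in Ly49G+ libraries, against 10.5, 8.93 and 10.1 CPM in Ly49I+ libraries. The groups did not overlap, and the log2 difference was 0.34 ± 0.15 (SE, limma adjusted p = 0.248). The small-subunit genes Ptcd3, Dap3 and Aurkaip1 had differences of 0.11, -0.08 and -0.04, and Gadd45gip1, a large-subunit gene, had -0.08. All 4 overlapped between groups.

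The genes that serve the mitochondrial ribosome gave no calls either. Of the symbols listed for mitochondrial translation factors 11 of 17 were measured, and for ribosome assembly factors 15 of 26. For mitochondrial aminoacyl-tRNA synthetases the count was 13 of 20, and for mitochondrial DNA transcription and upkeep 8 of 12. These totals count symbols, since Wbscr16 and Rcc1l name the same gene, and so do Twnk and Peo1. None of these 47 genes passed in limma, against 3.59% of all genes. With the replicate block none passed either, against 11.7% of all genes. At an unadjusted p under 0.05 there were 5, all higher in Ly49G+, a smaller share than the 19.8% of all genes. They were Gtpbp10, Noa1 and Mterf3, which act in assembly of the ribosome, with log2 differences of 0.39, 0.33 and 0.28, Guf1, related to a bacterial elongation factor, with 0.28, and Ssbp1, which binds single-stranded mitochondrial DNA, with 0.29. Of 63 nuclear genes for oxidative phosphorylation subunits, 0 passed in limma, against 3.59% of all genes. An unadjusted p under 0.05 was found for 6, again a smaller share than the 19.8% of all genes. The median of the 63 genes was -0.03. With the block 1 was called higher and 1 lower, against 5.69% and 5.96% of all genes.

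The proteins of the cytosolic ribosome gave a different count. Of 77 measured cytosolic ribosomal protein genes, 10 were called higher in Ly49G+ and 0 lower, against 1.82% and 1.77% of all genes, and with the replicate block 36 were called higher and 0 lower, against 5.69% and 5.96%. Their median log2 difference was 0.22, beside 0.07 for the mitochondrial set, and 75 of 77 were positive. Their sum divided by the sum of the mitochondrial members was 20.2, 19.95 and 21.4 in Ly49G+ libraries, against 16.25, 17.9 and 18.9 in Ly49I+ libraries. The groups did not overlap. In single libraries the cytosolic sums were 22920 to 25110 CPM in Ly49G+ and 17870 to 22420 CPM in Ly49I+. GC content and difference were related among these genes too (r = -0.482, n = 77). After the GC correction r was 0.173, and their median log2 difference was 0.29, beside 0.05 for the mitochondrial set.

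Promoters of nuclear genes for mitochondrial proteins often hold sites for the nuclear respiratory factors NRF1 and GABP, an ETS factor, and for YY1. RefSeq promoter windows of GRCm38.p6, from 250 bases before to 50 bases after a listed start of the gene, were matched to 47 of the 53 members. For some members, Mrpl9, Mrpl22 and Mrpl24 among them, that start lies inside the annotated gene span. Both strands were searched for the ETS motif CCGGAAG, for GCGCATG, which is part of the palindromic NRF1 motif, and for AAGATGG, the start of the YY1 motif. Matches that overlapped each other were counted separately. The ETS motif was in 18 of 47 windows (38.3%), against 22.3% of 6795 windows of the other genes of the table and 9.12% of all 27025 windows. The NRF1 letters were in 7 (14.9%), against 8.23% and 4.04%, and the YY1 letters in 6 (12.8%), against 8.20% and 6.48%. At least 1 of the motifs was in 26 windows (55.3%), against 34.3% and 17.9%. The median GC content of the windows was 57.7% for the members, 61.3% for the other genes of the table and 52.7% for all. A match is a run of letters and does not show that a factor binds there.

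The 5 windows shown read 5′ to 3′ on the strand of their gene, with motif letters in capitals. Mrpl32 (chr13:14612988-14613287, minus strand) is shown as the large-subunit gene with the largest difference. Mrpl39 (chr16:84735195-84735494, minus strand) had the smallest spread, and it and Mrpl9 (chr3:94443086-94443385, plus strand), related to bacterial L9, hold the NRF1 letters on both strands as an overlapping pair. Mrps18a (chr17:46110754-46111053, plus strand) holds the ETS letters and then the YY1 letters. Mrps15 (chr4:126046678-126046977, plus strand) had the largest difference of the 53 members, and none of the 3 motifs is in its window.
Mrpl32: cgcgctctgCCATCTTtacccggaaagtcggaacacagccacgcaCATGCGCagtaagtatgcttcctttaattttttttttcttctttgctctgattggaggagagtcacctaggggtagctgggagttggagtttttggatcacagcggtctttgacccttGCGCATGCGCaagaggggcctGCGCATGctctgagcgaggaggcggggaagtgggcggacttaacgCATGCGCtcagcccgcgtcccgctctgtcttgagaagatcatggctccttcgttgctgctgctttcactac
Mrpl39: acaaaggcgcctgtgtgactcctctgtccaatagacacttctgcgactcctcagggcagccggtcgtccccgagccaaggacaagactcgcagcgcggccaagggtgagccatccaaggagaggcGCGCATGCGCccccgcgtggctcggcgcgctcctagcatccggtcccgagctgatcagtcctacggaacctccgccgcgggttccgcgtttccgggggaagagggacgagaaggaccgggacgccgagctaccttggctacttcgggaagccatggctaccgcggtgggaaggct
Mrpl9: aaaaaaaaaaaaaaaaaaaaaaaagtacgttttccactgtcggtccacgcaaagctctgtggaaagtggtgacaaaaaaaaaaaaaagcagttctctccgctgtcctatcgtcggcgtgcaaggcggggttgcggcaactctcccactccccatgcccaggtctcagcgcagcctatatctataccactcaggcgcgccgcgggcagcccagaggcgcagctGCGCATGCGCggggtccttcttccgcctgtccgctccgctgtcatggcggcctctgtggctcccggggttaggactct
Mrps18a: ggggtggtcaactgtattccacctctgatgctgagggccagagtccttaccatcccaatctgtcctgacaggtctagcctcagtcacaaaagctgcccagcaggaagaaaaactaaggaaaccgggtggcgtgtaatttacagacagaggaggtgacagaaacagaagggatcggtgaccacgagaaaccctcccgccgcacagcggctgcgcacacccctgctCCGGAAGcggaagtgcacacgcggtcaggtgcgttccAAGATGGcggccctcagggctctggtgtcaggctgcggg
Mrps15: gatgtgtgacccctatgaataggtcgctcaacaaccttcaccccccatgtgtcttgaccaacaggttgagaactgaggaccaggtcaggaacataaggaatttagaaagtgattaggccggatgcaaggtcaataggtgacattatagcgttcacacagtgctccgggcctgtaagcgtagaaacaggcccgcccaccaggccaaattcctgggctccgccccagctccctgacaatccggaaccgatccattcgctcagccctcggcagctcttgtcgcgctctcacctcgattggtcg

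The window of Mrpl32 holds 5 matches of the NRF1 letters, the first at base 46 and the last at base 230, all before the gene start. By that number, chosen after the window had been seen, a window with at least 5 such matches occurred for 1 of the 47 members (2.13%), 2 of 6795 other genes of the table (0.0294%) and 3 of all 27025 windows (0.0111%). In Mrpl39 and Mrpl9 the paired matches begin at bases 126 and 223. The pair of Mrpl9 lies inside the annotated gene span (chr3:94443154-94448708). The log2 differences of Mrpl32, Mrpl39 and Mrpl9 were 0.34, 0.10 and 0.13. Mrpl39 had 37.1, 39.8 and 39.1 CPM in Ly49G+ libraries, against 35.7, 36.7 and 35.6 CPM in Ly49I+ libraries, so the groups stood apart by a small margin. Mrpl9 had 45.3, 49.4 and 52.9 CPM in Ly49G+ libraries, against 39.2, 46.9 and 49.0 CPM in Ly49I+ libraries. Its groups overlapped, with replicate 1 the lowest of each. Neither gene passed the test, with limma adjusted p of 0.504 for Mrpl39 and 0.502 for Mrpl9.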

How the data were processed

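RNA was measured in 6 libraries of sorted splenic NK cells, 3 per group. Reads were 100-base pairs, per the labels' protocols. CASAVA 1.8.2, STAR 2.3.0, limma and build mm10 are named in the submitters' processing notes. Read counter, annotation and filter: not given in the sources used here. Values in the deposited table are on a log2 scale, per gene. They are log2 CPM with 0.5 reads added, since all values gave whole reads within 0.001. Library totals come from those reads, and 1.43% to 1.71% of them lay outside the table. No gene was under 10 CPM in its second-highest library. Chi-square per degree of freedom between replicates was 25.2 to 81.2, so no 2 libraries agreed within counting noise.

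The members, lists and tests were chosen with earlier results of these data known. GeneIDs were named from RefSeq (8429) and GENCODE vM21 (1), and 90 had no name. Transcript and coding lengths and GC content came from 1 GENCODE vM21 transcript a gene. limma 3.58.1 in R 4.3.3 was fitted to all 8520 genes of the deposited log2 values with an intensity trend and no covariate, two-sided, with Benjamini-Hochberg adjustment over all genes. The script was tested on simulated data. Genes were named by rule: the 5 largest differences each way, the 5 highest and lowest levels per kb, the 4 largest and smallest SDs, symbols that differ from the protein's place, missing members and proteins under other names. Mrps9, Mrps5, Mrps21, Mrpl30 and the genes shown for their promoters were named after their values were seen. Same-numbered libraries of the 2 groups had correlated deviations from their group means (r = 0.371, 0.114 and 0.156 over 8520 genes), all above 0.1, so the replicate block was fitted too. The highest correlation of Ly49G+ replicate 3 was with Ly49I+ replicate 2 (0.359). Ly49G+ replicate 2 correlated as well with Ly49I+ replicate 1 (0.115), so the pairing is a hint from the data. Alternatives covered scaling, prior, weights, addend, a level filter, the block and leaving out each library, and a GC correction (loess, span 0.5) added after seeing the data. Intervals cover the spread between these libraries. Promoter motifs for NRF1 and YY1 were first searched in longer forms, which matched fewer windows in every set, and were shortened after those matches had been seen.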

Additional observations from a re-analysis of the deposited data

How the results depend on the processing

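Over all genes 306 were called. The replicate block called 993, the GC correction 557 and both together 708. Leaving out 1 library gave 94 to 644, the most without Ly49I+ replicate 1. Of the 53 members, 0 were called as reported, 3 with the block (Mrps15, Mrpl32 and Mrpl4), 1 with the GC correction and 1 with both (Mrps15 each time), and 0 to 1 when 1 library was left out (Mrps15 without Ly49I+ replicate 1). For 12 named members, 179 of 186 values under 16 settings kept their direction and their side of the threshold, 6 came to pass it, and 1 reversed: Mrps30 had -0.050 without Ly49G+ replicate 3, against 0.11 with all libraries, and ranged over -0.050 to 0.31 as single libraries were left out. The cause of these changes was not tested. The medians of 0.07 over all members, 0.00 over the large and 0.10 over the small subunit ranged over 0.02 to 0.12, -0.01 to 0.05 and 0.08 to 0.18. Scaling moved a library by at most 0.02 on the log2 scale. The block changed no other call among the named members. Depth limits the precision of the lowest members, which had 253 reads in 1 library, and the part of counting error in the spread between libraries was not tested.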
